A study of Mus musculus and blank sample with 768 samples.

Results

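Axon guidance ligands and their receptors were compared across the sort gates of mouse tumours and lymph nodes. The set held every gene present in both read count tables whose symbol belongs to the ephrins (Efna, Efnb), Eph receptors (Epha, Ephb), semaphorins of classes 3 to 7, plexins, Slit1 to Slit3, Robo1 to Robo4, the numbered netrins (Ntn) or Unc5, with antisense names left out. It came to 67 of the 51734 symbols, 34 ligand genes and 33 receptor genes. The rule reads names and uses no measured value. Unc50 and Unc5cl entered by their names alone. Unc50 codes for a membrane protein of the Golgi and Unc5cl for a protein with a death domain, and neither is a netrin receptor.

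Single cells had been sorted into wells and sequenced as full-length cDNA (SMART-seq2), which reads whole transcripts and carries no molecular barcodes. In the tumour, cells of the Csf1r lineage with an endothelial surface (CD45- CD31+ GFP+, named CLEC in the labels) came from 96 wells each of plates KM3 and KM4, endothelial cells without GFP (CD45- CD31+ GFP-, here tumour EC) from 96 wells of plate KM2, and macrophages (CD45+ CD31- GFP-) from 96 wells of plate KM1. In the lymph node, CD45- CD31+ cells were sorted as GFP+ and as GFP- (48, 36 and 32 wells each in pools A, B and C) and as GFPlow (19, 32 and 72 wells in pools B, C and D). The labels call the GFP+ cells CLEC and the GFPlow cells potential CLEC. All tumour and lymph node samples carry a label for 1 tissue and 1 gate only; the mouse strain, the alleles that give GFP to the Csf1r lineage, the tumour model, the age of the mice and the number of mice are not given in the sources used here.

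Of 739 wells with a tumour or lymph node cell, 585 cells were kept. A cell was kept if its gene reads numbered 50000 or more, it showed 1000 or more genes, and mitochondrial genes took no more than 25% of its reads. These were 84 CLEC on KM3 and 85 on KM4, 84 tumour EC, 81 tumour macrophages, 98 lymph node GFP+, 74 lymph node GFP- and 79 lymph node GFPlow cells. Reads in genes per cell ran from 58373 to 3.12e+06 with a median of 831140. No label names an animal, so each gate counts as 1 sample and no test between gates was possible. A level is the summed read count of a gate scaled to 1000000 reads (CPM), given with its exact Poisson 95% interval. A share is the percent of cells with at least 1 read, with an exact Clopper-Pearson 95% interval. Both intervals cover counting error only, since PCR reads are not independent molecules. Where no cell of a gate had a read, the upper limit given is instead 3 cells divided by the cells of the gate, which lies below the exact limit. Gates sorted on separate plates differ in plate as well as in cell type, and those effects cannot be told apart. The tumour gates matched their labels by markers: the pan-endothelial list summed to 9166 CPM in CLEC, 10990 in tumour EC and 47.8 in macrophages, and Ptprc, which codes for CD45, had no read in CLEC or tumour EC and stood at 334.2 CPM in macrophages. In the lymph node the pan-endothelial list summed to 3615 CPM in GFP+, 10449 in GFP- and 5263 in GFPlow cells, Ptprc was at 0.0105, 1.80 and 2.97 CPM, and the 5 haematopoietic markers summed to 136.5, 20.7 and 31.8 CPM. Within a summed gate, fewer cells with a transcript and less transcript per cell cannot be told apart, and the shares of cells are given for that reason.

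Guidance molecules were named for steering growing axons, and vessels use the same families. Ephrins are membrane-bound ligands that signal through Eph receptor kinases on touching cells, class 3 semaphorins are secreted and act through plexins, mostly with neuropilins as co-receptors, Slits act through Robo receptors, and netrins through Unc5 receptors and Dcc. In endothelium, ephrin-B2 marks arteries and EphB4 veins, plexin-D1 relays repulsive semaphorin signals that pattern vessels, and Robo4 and Unc5b are the Robo and Unc5 receptors best known from blood vessels.

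A total of 40 of the 67 genes were measured in at least 1 gate, that is at 1 CPM or more with reads in at least 5% of its cells, and 23 reached 20 CPM with reads in 25% of cells. The other 27 were not measured in any gate, and 11 of them had no read at all: Epha3, Epha6, Epha7, Epha8, Ntn5, Plxna3, Sema3b, Sema4f, Sema5b, Unc5cl and Unc5d. By gate, 26 were measured in CLEC, 25 in tumour EC, 9 in tumour macrophages, 24 in lymph node GFP+, 29 in lymph node GFP- and 27 in lymph node GFPlow cells. The summed level of all 67 was 2516 CPM in CLEC, 2144 in tumour EC, 583 in macrophages, 1785 in lymph node GFP+, 2491 in GFP- and 1926 in GFPlow cells. Ligands and receptors were both present in every endothelial gate, whereas the macrophages held mainly class 4 semaphorins and plexins besides Unc50.

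**Figure D1:**
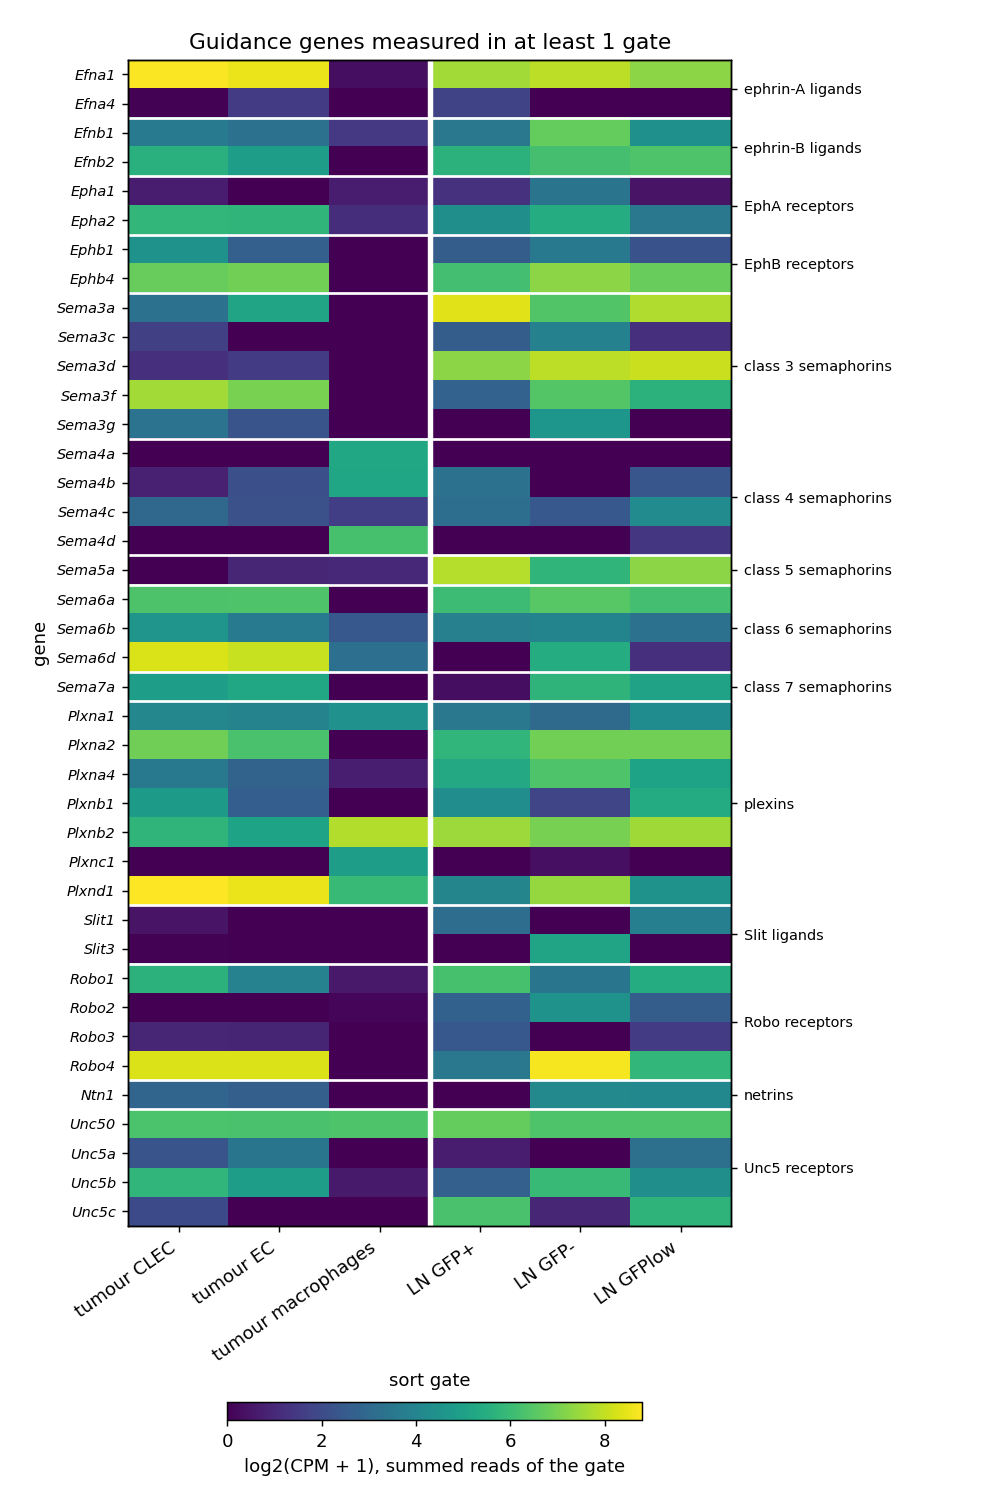
Level of each of the 40 guidance genes measured in at least 1 gate (rows, grouped by family) in the 6 sort gates (columns, tumour left of the white line and lymph node right of it), as log2(CPM + 1) of the summed reads of the gate. Both tumour endothelial columns look alike, the macrophage column is mostly empty outside class 4 semaphorins and plexins, and the lymph node GFP+ and GFPlow columns are brighter for Sema3a, Sema5a and Unc5c and the GFP- column for Robo4, Plxnd1 and Sema7a.

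The 250 bases before the RefSeq start of 4 genes are shown first. These genes separated the lymph node GFP+ and GFP- gates with the same direction in each of pools A, B and C. Other genes did so too, among them Unc5c, Sema3f and Efnb1. Promoters were printed only for genes whose RefSeq and GENCODE starts lie close together, which left out Unc5c. Robo4, Plxnd1 and Sema7a were lower in GFP+ than in GFP- cells, and Sema5a was higher. The sequences are RefSeq promoters of GRCm38.p6, written from 5′ to 3′ on the strand of the gene, and 58 of the 67 genes had an entry there. Capitals mark the motifs found by a search of both strands for the ETS-type core AGGAAG, the GC box GGGCGG, the TBP-type letters TATAAA and the SOX-type core AACAAT.

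Robo4, chr9:37401722-37401971, plus strand: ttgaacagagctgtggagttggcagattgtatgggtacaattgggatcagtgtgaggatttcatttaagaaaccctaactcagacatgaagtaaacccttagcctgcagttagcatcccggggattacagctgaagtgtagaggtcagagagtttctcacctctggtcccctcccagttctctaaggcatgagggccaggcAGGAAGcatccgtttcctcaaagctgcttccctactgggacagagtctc

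Plxnd1, chr6:115995006-115995255, minus strand: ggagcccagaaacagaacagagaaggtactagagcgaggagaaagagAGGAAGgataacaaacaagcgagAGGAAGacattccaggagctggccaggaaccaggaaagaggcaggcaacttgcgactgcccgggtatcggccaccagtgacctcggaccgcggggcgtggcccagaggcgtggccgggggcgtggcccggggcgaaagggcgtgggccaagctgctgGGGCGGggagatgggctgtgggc

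Sema7a, chr9:57939862-57940111, plus strand: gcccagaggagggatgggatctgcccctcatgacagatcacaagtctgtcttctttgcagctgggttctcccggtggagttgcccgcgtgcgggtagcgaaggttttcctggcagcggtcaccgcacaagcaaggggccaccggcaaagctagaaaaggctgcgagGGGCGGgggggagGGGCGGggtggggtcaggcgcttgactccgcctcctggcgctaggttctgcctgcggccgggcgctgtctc

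Sema5a, chr15:32244563-32244812, plus strand: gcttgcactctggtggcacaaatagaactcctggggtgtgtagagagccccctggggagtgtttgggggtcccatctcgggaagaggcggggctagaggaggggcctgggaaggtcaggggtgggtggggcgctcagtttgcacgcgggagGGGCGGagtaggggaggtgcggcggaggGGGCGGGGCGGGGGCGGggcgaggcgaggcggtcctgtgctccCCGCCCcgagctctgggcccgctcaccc

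The Robo4 promoter held 1 ETS-type match and 2 CG dinucleotides, at 49.6% G and C. Its last 75 bases, with that match, lie inside the Robo4 gene as GENCODE places it, since the GENCODE start is upstream of the RefSeq start, and 3 bases do so for Sema5a. The Plxnd1 promoter held 2 ETS-type matches and 1 GC box, with 16 CG dinucleotides and 64.8% G and C. Sema7a had 2 GC boxes and Sema5a 5, which overlap in part, and neither had an ETS-type match. None of the 4 held the TBP-type or the SOX-type letters in this window. Over 32851 RefSeq promoters of the same length, 29.5% held the ETS-type letters, 32.7% the GC box, 12.4% the TBP-type letters and 9.42% the SOX-type letters, with a median of 52.4% G and C and 6 CG dinucleotides, so each match is common and describes the sequence only.

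Among ephrins, Efna1, a ligand of EphA receptors, had the highest level per kb of exon of all guidance genes in every endothelial gate. Its level was 423 CPM (420.1 to 427) in CLEC, 373.7 in tumour EC, 0.249 in macrophages, 190.7 in lymph node GFP+, 243.1 in GFP- and 151.98 in GFPlow cells. Reads were present in 69 of 84 on KM3 and 68 of 85 on KM4 CLEC (81.1%, 74.3 to 86.7%), 75 of 84 tumour EC, 2 of 81 macrophages, 50 of 98 lymph node GFP+, 41 of 74 GFP- and 31 of 79 GFPlow cells. The tumour endothelial gates were thus higher than all lymph node gates in both level and share, and macrophages had almost none. Per kb of exon the CPM (RPKM) were 231.3 in CLEC and 204.2 in tumour EC, above 60.6 and 51.01 for Plxnd1. Cells of a gate varied widely: the lowest CLEC had no read, the median cell 269.7 CPM and the highest 2420.3 CPM. Efna1 lies at chr3:89271733-89281142, minus strand (GENCODE annotation of GRCm38, used for all gene positions here).

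Efnb2, the arterial ephrin, was found in every endothelial gate and in no macrophage. It stood at 47.3 CPM in CLEC (25 of 84 on KM3 and 33 of 85 on KM4 cells), 28.5 in tumour EC (30 of 84), 48.9 in lymph node GFP+ (39 of 98), 72.1 in GFP- (31 of 74) and 81.9 in GFPlow cells (35 of 79). The share of cells therefore stayed between 34.3% and 44.3%, and the levels differed more than the shares. Efnb1, another EphB ligand, was highest in lymph node GFP- cells at 102.96 CPM (28.4% of cells), against 10.4 CPM in GFP+ and 20.5 in GFPlow cells and 11.6 and 8.83 in CLEC and tumour EC. The remaining ephrins were Efna4, measured only at low level (2.46 CPM in lymph node GFP+ cells), and Efna2, Efna3, Efna5 and Efnb3, which were not measured in any gate.

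The Eph receptors were led by Ephb4, the venous receptor of ephrin-B2. Its level was 106.2 CPM in CLEC, 121.5 in tumour EC, 0 in macrophages, 70.1 in lymph node GFP+, 151.2 in GFP- and 106.7 in GFPlow cells. The same gates had reads in 57.99%, 63.1%, 0, 34.7%, 50% and 36.7% of cells. Lymph node GFP- cells were highest in level, and the endothelial gates spanned little more than a 2-fold range. Epha2, the receptor of ephrin-A1 with most reads here, was at 55.5 CPM in CLEC and 53.4 in tumour EC, in 32.5% and 32.1% of cells, and at 42.5, 19.6 and 10.4 CPM in lymph node GFP-, GFP+ and GFPlow cells. Ephb1 was measured in CLEC at 21.7 CPM (13.6% of cells), and in the other endothelial gates its reads came from at most 3 cells each. Epha1 was the last of the 4 Eph receptors measured, at 9.48 CPM in lymph node GFP- cells.

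Reads of both members of the ephrin-B2 and EphB4 pair were found together in some cells of every endothelial gate. In the tumour, 37 CLEC held reads of both, and Ephb4 was present in 63.8% of the cells with Efnb2 and in 54.95% of those without. In tumour EC the shares were 66.7% and 61.1%, and in lymph node GFPlow cells 40% and 34.1%. In lymph node GFP- cells they were 64.5% and 39.5%, and in GFP+ cells 33.3% and 35.6%. Only the GFP- gate showed a wide gap. With each cell thinned to 100000 reads they were 63.5% and 53.04% in CLEC and 61.5% and 40% in GFP- cells. These are descriptions over cells of 1 gate, which are not replicates.

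The secreted class 3 semaphorins differed by gate. Sema3f, a ligand that uses neuropilin-2, was the class 3 gene with the highest level in both tumour endothelial gates: 191.2 CPM in CLEC (86.4% of cells), 130.2 in tumour EC (78.6%), 0 in macrophages, 5.80 in lymph node GFP+ (3 of 98), 86.5 in GFP- (43.2%) and 49.7 in GFPlow cells (16.5%). Sema3a, the classic repellent ligand that uses neuropilin-1, was the class 3 gene of the lymph node GFP+ gate, at 337.1 CPM (333.4 to 340.8). Its level was 215.4 CPM in GFPlow, 83.1 in GFP-, 33.8 in tumour EC, 8.60 in CLEC and 0 in macrophages. The shares of cells set the GFP+ and GFPlow gates apart from the rest: 74 of 98 (75.5%, 65.8 to 83.6%) and 54 of 79 (68.4%, 56.9 to 78.4%) against 8 of 74 GFP-, 6 of 84 tumour EC and 6 of 84 on KM3 and 7 of 85 on KM4 CLEC. In lymph node GFP- cells 37.7% of the Sema3a reads came from 1 cell. Cells of the GFP+ gate ran from 0 to 2253 CPM with a median of 198.6. Sema3a lies at chr5:13125414-13602565, plus strand, and Sema3f at chr9:107681500-107710475, minus strand.

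Sema3d, a class 3 ligand that acts on endothelium, was a gene of all 3 lymph node gates and nearly absent from tumour. It stood at 153.1 CPM in GFP+ (51.02% of cells), 238.01 in GFP- (31.1%) and 268.5 in GFPlow cells (73.4%), against 1.26 in CLEC, 1.89 in tumour EC and 0 in macrophages. Sema3a and Sema3d were read in the same cell in 40 of 98 GFP+ and 41 of 79 GFPlow cells. Sema3g and Sema3c were low, with highest levels of 23.4 and 13.5 CPM in lymph node GFP- cells, each from 4 of 74 cells. Sema3e, a ligand of plexin-D1, had 1 read in tumour EC and none elsewhere in these gates, and Sema3b had none.

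Class 4 semaphorins are membrane ligands, several of them known from immune cells. Sema4a and Sema4d were read in macrophages at 37.97 CPM (23.5% of cells) and 74.6 CPM (49.4%), and had no read in CLEC or tumour EC. For the CLEC kept, 0 cells with a read allows a share of up to 1.78%, and for 84 tumour EC up to 3.57%. Sema4b was at 35.7 CPM in macrophages and in 56 of 81 of them (69.1%), against 0.748 CPM in CLEC, 3.44 in tumour EC, 8.69 in lymph node GFP+ and 4.15 in GFPlow cells, with 1 read in GFP- cells. Sema4c was low in all gates, from 2.07 to 17.8 CPM.

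Sema5a, a membrane semaphorin with thrombospondin repeats, was a lymph node gene: 224.4 CPM in GFP+ (57.1% of cells, highest cell 5698), 153.03 in GFPlow (43.04%) and 52.7 in GFP- cells (14.9%). CLEC had no Sema5a read, and tumour EC and macrophages stood at 0.918 and 0.948 CPM. Sema6d, a transmembrane ligand of plexin-A receptors, had the reverse pattern: 310.9 CPM in CLEC (78.7%), 262.98 in tumour EC (89.3%), 42.7 in lymph node GFP- (20.3%), 8.23 in macrophages and 1.28 in GFPlow cells. None of 98 lymph node GFP+ cells had a Sema6d read, which allows a share of up to 3.06%. Sema6a was even across endothelium, from 64.9 CPM in lymph node GFP+ to 91.1 in GFP- cells, with 79.8 in CLEC and 82.4 in tumour EC. Sema6b was at 22.8 CPM in CLEC and 10.9 in tumour EC, and lower than the CLEC value in every other gate. Sema7a, the semaphorin anchored by a lipid tail, was at 28.7 CPM in CLEC (40.8%), 36.9 in tumour EC (50%), 51.4 in lymph node GFP- (31.1%), 32.4 in GFPlow (5 of 79) and 0.263 in GFP+ cells.

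Among plexins, the semaphorin receptors, Plxnd1 led in tumour endothelium. It was at 443 CPM in CLEC (439 to 446), 372.4 in tumour EC, 61.3 in macrophages, 14.99 in lymph node GFP+, 168.1 in GFP- and 21.3 in GFPlow cells. Nearly every tumour endothelial cell had reads, 82 of 84 on KM3 and 77 of 85 on KM4 CLEC (94.1%, 89.4 to 97.1%) and 83 of 84 tumour EC (98.8%), against 58.1% of lymph node GFP-, 21.4% of GFP+ and 12.7% of GFPlow cells. Plxnb2, a receptor of class 4 semaphorins, was instead lowest in the tumour endothelial gates: 217.1 CPM in macrophages (74.1%), 184.5 in GFPlow, 180.1 in GFP+, 126.6 in GFP-, 52.9 in CLEC and 33.6 in tumour EC. Plxna2, a receptor of class 3 and class 6 semaphorins, was in all endothelial gates, from 53.6 CPM in lymph node GFP+ to 120.9 in GFP- cells, and had no read in macrophages. Plxnc1, the receptor of Sema7a, was a macrophage gene at 28.9 CPM (22.2%) and had no read in CLEC or tumour EC. Plxnb1, a receptor of Sema4d, was at 26.8 CPM in CLEC and 41.7 in lymph node GFPlow cells, the latter from 5 cells. Plxna4 was highest in lymph node GFP- cells (81.99 CPM, 20.3%), and Plxna1 ranged from 7.26 to 20.8 CPM. Plxnd1 lies at chr6:115954811-115995005, minus strand.

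Slit ligands were scarce in these gates. Slit2 had 1 read in all, in the GFPlow gate. Slit3 was at 34.01 CPM in lymph node GFP- cells, from 4 of 74 cells with 76.9% of its reads in 1 of them, and Slit1 reached 12.9 CPM in GFPlow cells. The Robo receptors were abundant in comparison. Robo4, an endothelial Robo of blood vessels, was at 317.2 CPM in CLEC (314.4 to 320.05; 72.2% of cells), 324.4 in tumour EC (88.1%), 0 in macrophages, 10.5 in lymph node GFP+ (5 of 98), 408 in GFP- (402 to 413; 64.9%) and 54.9 in GFPlow cells (12 of 79). Single CLEC ran from 0 to 4001 CPM with a median of 176.5, and the median tumour EC had 326.3 CPM. Robo1, the broadly used Slit receptor, was at 73.96 CPM in lymph node GFP+ (38.8%), 49.6 in CLEC (33.7%), 42.4 in GFPlow (26.6%), 14.1 in tumour EC (20.2%), 9.81 in GFP- (4 of 74) and 0.499 in macrophages. The 2 receptors thus had different gates as their highest, and both were read in 45 CLEC but in 3 GFP+ and 2 GFP- lymph node cells. Robo2 was highest in lymph node GFP- cells at 21.6 CPM and Robo3 in GFP+ cells at 4.38 CPM. Robo4 lies at chr9:37401897-37415115, plus strand, and Robo1 at chr16:72308306-73046095, plus strand.

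Netrins were low, and their receptors of the Unc5 family differed by gate. Ntn1 was at 6.23 CPM in CLEC (8.28% of cells), 5.30 in tumour EC, 16.5 in lymph node GFP- (4 of 74) and 16.3 in GFPlow cells (3 of 79), with 1 read in GFP+ cells and none in macrophages. Unc5b, the endothelial netrin receptor, was at 54.4 CPM in CLEC (34.9%), 29.4 in tumour EC (26.2%), 61.5 in lymph node GFP- (28.4%), 19.7 in GFPlow (11.4%) and 5.44 in GFP+ cells (4 of 98). Unc5c, known from neurons, was nearly the complement in the lymph node: 75.5 CPM in GFP+ (73.8 to 77.3; 32 of 98), 52.2 in GFPlow (25.3%) and 0.944 in GFP- cells (3 of 74). In the tumour it was at 2.95 CPM in CLEC, from 2 cells, and had no read in tumour EC or macrophages. Unc5a was at most 9.58 CPM, in tumour EC. Unc50, the Golgi protein, was nearly even, from 76.3 CPM in tumour EC to 105.2 in lymph node GFP+ cells. Dcc, the other netrin receptor, had no read in any gate. Unc5c lies at chr3:141465216-141834924, plus strand, and Unc5b at chr10:60762593-60831581, minus strand.

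**Figure D2:**
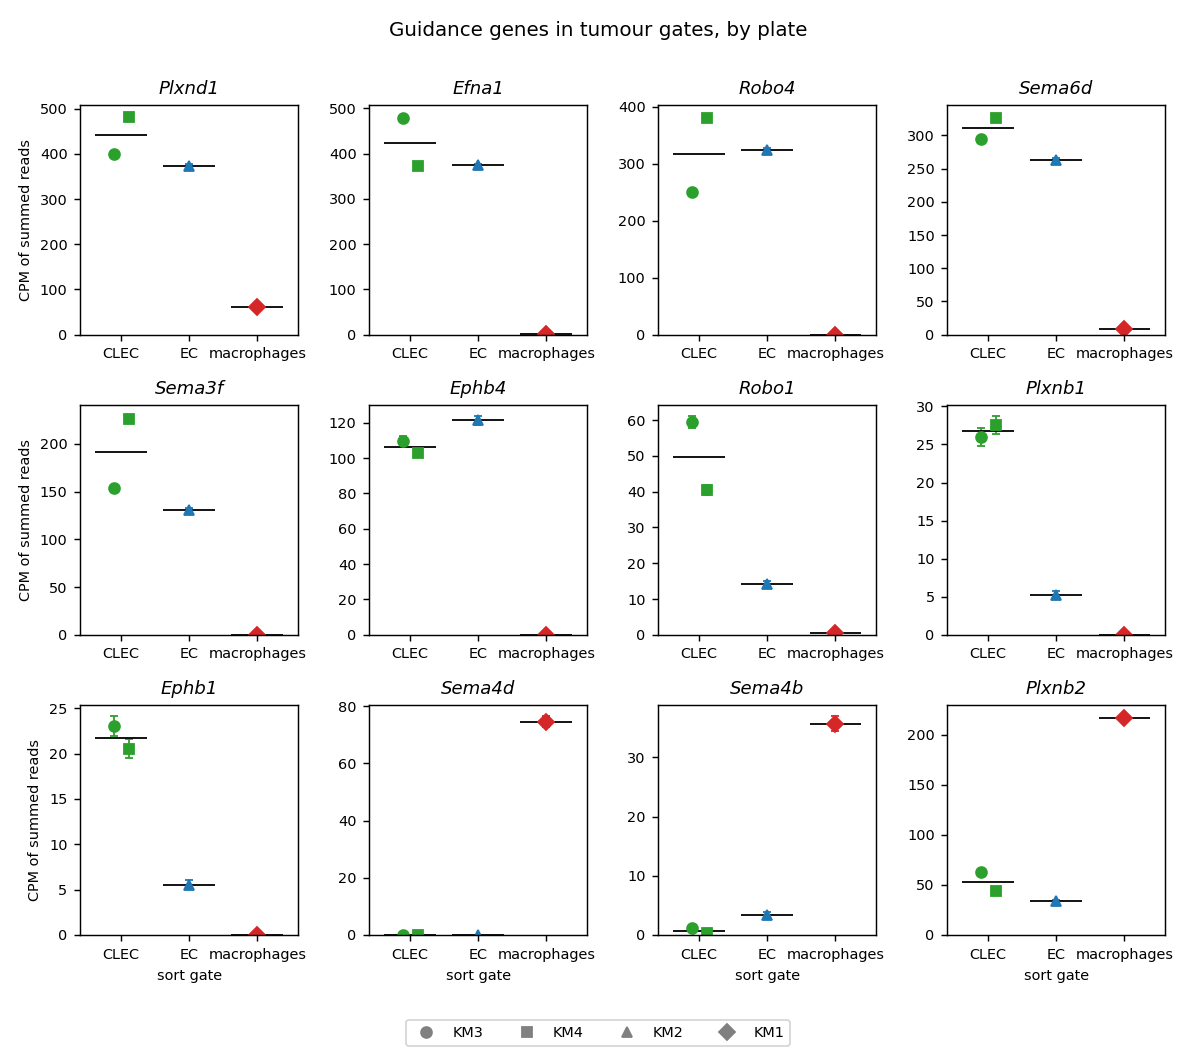
CPM of 12 guidance genes on each tumour plate (circle KM3 and square KM4 for CLEC, triangle KM2 for tumour EC, diamond KM1 for macrophages); black bars show the level of the whole gate and error bars exact Poisson 95% intervals, which cover counting error only. The tumour endothelial plates lie close together for Plxnd1, Efna1, Robo4 and Sema6d, and the macrophage plate stands apart from them.

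Most measured guidance genes, 21 of 27, were not set apart between tumour CLEC and tumour EC by the 2-fold rule given below. Plxnb1, Ephb1, Robo1 and Sema3g were higher in CLEC and Sema3a and Sema4b lower. A gene is called apart here when it differs at least 2-fold in the same direction both in summed reads, as log2(CPM + 1), and in the mean of per-cell CPM. By that rule 4 of 27 measured genes were higher (14.8%) and 2 lower (7.41%), where 5.62% of all 10971 measured genes were higher and 6.24% lower. The median ratio of the 27 genes was 0.25 on the log2(CPM + 1) scale against -0.12 for all measured genes. Both counts rest on a handful of genes.

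Plxnb1 was 26.8 CPM in CLEC (25.97 on KM3 and 27.6 on KM4; 15.98% of cells) and 5.17 in tumour EC (9.52%), 5.18-fold higher. Ephb1 was 21.7 CPM (23.01 and 20.5) against 5.54, 3.92-fold higher. Robo1 was 49.6 CPM (59.4 and 40.3) against 14.1, 3.52-fold higher, with reads in 33.7% and 20.2% of cells. Both CLEC plates lay above the tumour EC plate for these 3 genes. Sema3g (9.22 against 3.85 CPM) was apart only while plate KM3 was included, with a log2 ratio of 1.08 for both plates and 0.72 for KM4 alone. Sema3a was 3.93-fold lower in CLEC, yet its share of cells was 7.69% in CLEC and 7.14% in tumour EC, with reads in 6 tumour EC in all. Sema4b was 0.748 against 3.44 CPM, and it was no longer apart without KM4 (log2 ratio -1.07) or with a pseudocount of 5 CPM (-0.55).

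The genes with the highest levels differed little between these gates. The log2 ratio of CLEC to tumour EC was 0.25 for Plxnd1 (0.10 for KM3 and 0.37 for KM4), 0.18 for Efna1 (0.36 and -0.01) and -0.03 for Robo4 (-0.38 and 0.23). It was 0.24 for Sema6d, 0.55 for Sema3f, -0.19 for Ephb4, 0.71 for Efnb2 and 0.87 for Unc5b. For Robo4 and Efna1 the CLEC plates lay on opposite sides of the tumour EC plate. The CLEC plates compared with each other, a difference within 1 gate, gave 2 of 27 genes higher on KM3 (Plxna4 and Ntn1; background 5.98%) and 3 lower (Efnb1, Sema6b and Sema4c; background 8.13%), nearly as many as between the gates. Of the co-receptors, 6 of 14 were measured and none was apart; Nrp1 was 275.7 CPM in CLEC and 249.5 in tumour EC, and Nrp2 142.7 and 83.8. Of 38 measured effectors and regulators, such as the Mical oxidases that act below these receptors, 2 were higher (Arhgef11 and Mical2) and 3 lower (Tll1, Sdc1 and Cask). Blood endothelial markers were higher for 3 of 13 genes and lower for 0, and their summed level was 10110 CPM in CLEC and 9335 in tumour EC. Lymphatic markers were higher for 2 and lower for 3 of 7, their sums were 416 and 618 CPM, and Prox1 had no read in tumour EC and 1.12 CPM in CLEC. The part of these cell types in the 6 genes was not tested.

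Tumour macrophages lacked most endothelial guidance genes and carried a small set of their own. Against macrophages, 23 of 30 measured genes were higher in CLEC (background 22.2%) and 5 lower (background 17.6%). In tumour EC, 19 of 28 were higher (background 24.9%) and 5 lower (background 17.7%), and these comparisons share the macrophage sample. The 5 lower genes were in each case Plxnb2, Sema4b, Plxnc1, Sema4a and Sema4d. The median log2 ratio was 3.31 in CLEC and 2.99 in tumour EC, against 0.085 and 0.21 for all measured genes. With genes at 0 in 1 gate set at a floor of 3 reads there, it was 5.11 and 4.45.

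Robo4 was at least 8477-fold higher in CLEC than in macrophages, where 0 reads were found, with the floor of 3 reads taken over the whole gate. By the same floor Sema3f was 5111-fold, Plxna2 3148-fold, Ephb4 2838-fold, Sema6a 2131-fold and Efnb2 1263-fold higher. Efna1 had 0.249 CPM in macrophages, a log2 ratio of 8.41, and Plxnd1 61.3 CPM, a log2 ratio of 2.83. Macrophages thus also held plexin-D1, in 45.7% of cells. In the other direction, with CLEC set at the floor, Sema4d was 3789-fold, Sema4a 1929-fold and Plxnc1 1468-fold lower in CLEC. Plxnb2 had a log2 ratio of -2.02. Co-receptors were higher in CLEC for 5 of 7 measured genes (Nrp2, Met, Erbb2, Itga1, Itgb1) and lower for 1, Cd72, the receptor of Sema4d on leukocytes (523 CPM in macrophages). Without plate KM4, Sema4c was at 0.55 and below 2-fold, and without KM3 Ntn1 was too rarely read to be measured. Effectors were higher for 20 and lower for 6 of 39. The macrophage marker list summed to 43393 CPM in macrophages, 21.1 in CLEC and 14.6 in tumour EC.

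**Figure D3:**
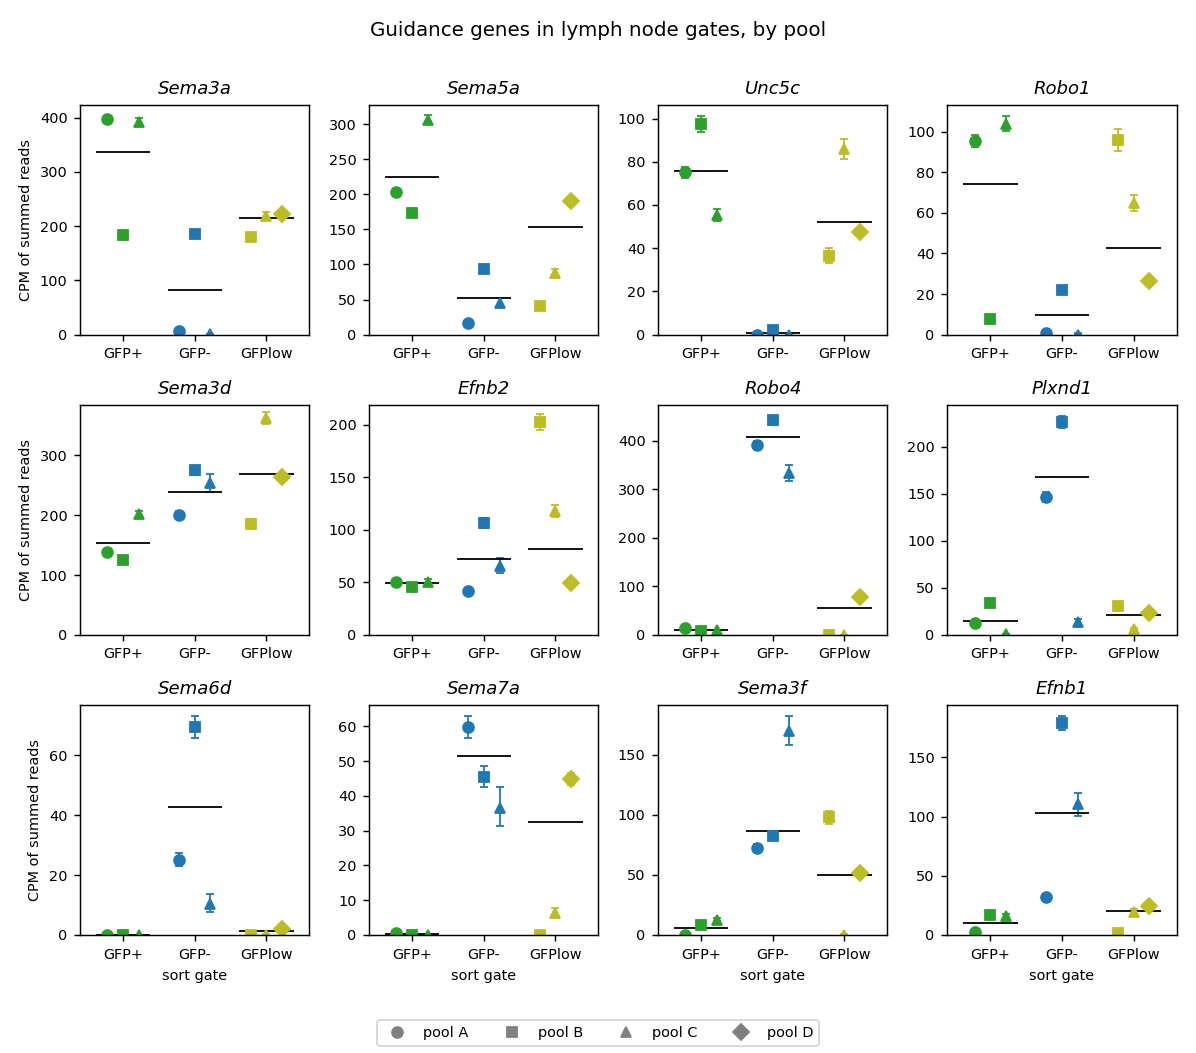
CPM of 12 guidance genes in each lymph node gate and pool (A to D, circle, square, triangle and diamond); black bars show the level of the whole gate and error bars exact Poisson 95% intervals, which cover counting error only. Sema5a and Unc5c are higher in every GFP+ pool than in the GFP- pool of the same letter, Robo4, Plxnd1 and Sema7a are lower in every one, and for Sema3a and Robo1 the GFP- pool B lies at or above the GFP+ pool B.

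In the lymph node, GFP+ cells carried Unc5c, Sema5a, Sema3a and Robo1 where GFP- cells carried Robo4, Plxnd1, Sema6d, Sema7a, Sema3f, Unc5b and Efnb1. Of 34 measured genes, 8 were higher in GFP+ cells (23.5%, background 16.5%) and 15 lower (44.1%, background 15.9%). Both sides held more than their background share, the lower side by more. The 8 were Unc5c, Sema4b, Robo1, Plxnb1, Robo3, Sema5a, Sema3a and Efna4, the last falling to a log2 ratio of 0.23 without pool A, and the 15 were Sema6d, Sema7a, Robo4, Slit3, Sema3g, Ntn1, Sema3f, Plxnd1, Unc5b, Efnb1, Epha1, Sema3c, Ephb4, Epha2 and Plxna4. Plxnb1 had the opposite direction in pool C, at 22.4 CPM in GFP+ against 26.1 in GFP- cells. The median log2 ratio of the 34 genes was -0.85 against 0.038 for all measured genes. Efna1, Efnb2, Sema3d, Sema6a and Plxnb2 were within 2-fold, with log2 ratios of -0.35, -0.55, -0.63, -0.48 and 0.51.

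Among ligands, Sema5a was 203.1, 172.8 and 306.4 CPM in GFP+ pools A, B and C and 16.95, 93.6 and 45.7 in the GFP- pools, higher in each. Sema3a was 397.6, 182.9 and 391.5 CPM against 6.83, 185.6 and 0.216. Its GFP- level thus came almost wholly from pool B, where 6 of 26 cells had reads against 1 of 40 and 1 of 8 in pools A and C. The Sema3a log2 ratio was 2.01 over all pools, 5.67, -0.02 and 8.33 by pool, and 0.93 without pool A, which is below 2-fold. Sema6d was 25.1, 69.3 and 10.3 CPM in the GFP- pools and 0 in every GFP+ pool. It was 1353-fold lower with GFP+ cells set at the floor of 3 reads, which is not a lower bound. Sema7a was 59.7, 45.6 and 36.7 CPM in the GFP- pools and at most 0.55 in a GFP+ pool. Sema3f was 72.6, 82.8 and 170.1 CPM against 0, 7.92 and 12.7, again lower in each GFP+ pool. Efnb1 was lower in each as well, with log2 ratios of -3.10, -3.37 and -2.70. Slit3, Sema3g and Ntn1 rested on 4, 4 and 4 of 74 GFP- cells, and each lost its call when 1 pool was left out: without pool A the log2 ratio of Ntn1 was 0.027, Sema3g was too rarely read to be measured without pool A or pool C, and Slit3 without pool B.

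Among receptors, Robo4 was 391.5, 442 and 333.6 CPM in the GFP- pools (29 of 40, 17 of 26 and 2 of 8 cells) and 13.3, 7.54 and 8.91 in the GFP+ pools, 38.9-fold lower over all pools. Plxnd1 was 146.7, 226.5 and 13.2 CPM against 12.4, 34.3 and 0.623. Both blood vessel receptors were lower in GFP+ cells in all pools, although pool C held only 8 GFP- cells. The Unc5 receptors exchanged places: Unc5c was 75.05, 97.5 and 55.3 CPM in the GFP+ pools and 0.0444, 2.14 and 0 in the GFP- pools. Unc5b was 18.3, 105.9 and 75.5 CPM in the GFP- pools and 5.52, 0.654 and 9.86 in the GFP+ pools. Robo1 differed by pool, with log2 ratios of 5.64, -1.37 and 6.71, so that pool B had the opposite sign. Ephb4 and Epha2 were lower, at log2 ratios of -1.10 and -1.08; without pool A these were -0.88 and -0.78, and without pool C Epha2 was at -0.87, all below 2-fold. Without pool B, Epha1 and Plxna4 changed sign, to 1.47 and 0.39, and Sema3c was at -0.66.

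Neuropilin-1, the co-receptor of Sema3a, moved with Robo4: Nrp1 was 619 CPM in GFP-, 0.0105 in GFP+ and 0.0525 in GFPlow cells. Nrp2, which lymphatic endothelium uses, was 64.3, 47.3 and 71.8 CPM. Of 8 measured co-receptors, 3 were higher in GFP+ cells (Met, Erbb2 and Flrt3, the last at 458 against 79.8 CPM) and 3 lower (Nrp1, Itga1 and Flrt2). Of 40 effectors, 11 were higher and 6 lower. Cell type markers moved with these genes. Blood endothelial markers were lower in GFP+ cells for 12 of 13 genes, with a median log2 ratio of -7.66, summed levels of 2280 CPM in GFP+ and 14091 in GFP- cells, and no read of Ly6c1 or Id1 in GFP+ cells. Lymphatic markers were higher for 3 and lower for 4 of 11, and Prox1 was 310.99 CPM in GFP+ and 206.01 in GFP- cells. Pan-endothelial markers were lower for 9 of 12, at sums of 3615 and 10449 CPM. Macrophage markers were higher for 4 of 4 measured genes and summed to 542 and 65.4 CPM, with Csf1r at 3.48 and 0.126 CPM. Haematopoietic markers were higher for 2 of 2 measured genes (Coro1a and Cd53), fibroblast or pericyte markers for 2 of 2 (Rgs5 and Ccl19, with list sums of 308.1 and 29.6 CPM), and Pf4, of platelets, and Sdc1, of the plasma cell list, were higher as well. Their part in the differences of guidance genes was not tested.

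Lymph node GFPlow cells were compared with the other gates in pools B and C, which hold all 3 gates, with 29 GFPlow, 34 GFP- and 55 GFP+ cells. In those pools they resembled GFP+ cells in Unc5c and in the near absence of Robo4, and differed from them in Efnb2 and Sema5a. GFPlow pool D, outside the comparison, lay within the range of the GFP+ pools for Efnb2 and Sema5a, at 49.3 and 190.5 CPM. Against GFP- cells, 6 of 33 measured genes were higher (background 21.6%) and 15 lower (background 26.5%). The 6 were Unc5c, Plxna1, Sema4b, Robo1, Robo3 and Sema4g, led by Unc5c at a log2 ratio of 4.54, and Robo4 was lowest among the 15, at 0.209 against 422 CPM. Plxnd1, Efnb1 and Sema7a had log2 ratios of -3.35, -3.75 and -3.34. GFPlow pool D, with 50 of the 79 GFPlow cells and not in this comparison, stood at 78.6 CPM for Robo4 (10 of 50 cells) and 44.9 for Sema7a (3 of 50). Sema4b fell below 2-fold without pool C (0.10), Efna1 (-1.18) and Ephb4 (-1.37) likewise (-0.52 and -0.59), and Unc5b and Plxna4 changed sign without pool C and without pool B respectively. Without pool B, Plxnd1 was at -1.03 and no longer apart, and Plxna1, Sema4g, Epha1, Robo2, Sema3c and Slit3 were at 0. Robo2 (-1.12) and Sema3c (-0.70) were not apart without pool C either, nor was Ntn4 (-0.069). All 13 blood endothelial markers were lower in GFPlow cells, pan-endothelial markers were lower for 7 of 12, and lymphatic markers were higher for 2 and lower for 4 of 12. Macrophage markers were higher for 3 and lower for 1 of 4 measured genes, and Rgs5, Pf4 and Cd79b, markers of pericytes, platelets and B cells, were higher. The part of these cell types in the ratios was not tested.

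Against GFP+ cells, 5 of 26 measured genes were higher in GFPlow cells (background 15.9%) and 3 lower (background 21.9%), shares that were near the background or under it. Both comparisons share the GFPlow cells. The 5 were Unc5b, Sema7a, Sema3f, Efnb2 and Sema4g, and the 3 were Epha2, Sema5a and Sema6b. Efnb2 was higher in each pool, at 202.6 and 117.8 CPM in GFPlow pools B and C against 45.2 and 50.7 in GFP+ pools, but GFPlow pool D, not in this comparison, stood at 49.3. Sema5a was lower in each, at 40.8 and 88.4 against 172.8 and 306.4 CPM, and 190.5 in pool D. Unc5b and Sema3f were high in GFPlow pool B alone (106.1 and 98.1 CPM, against 0 and 0.261 in pool C), and both changed sign without it. Sema7a changed sign without pool C, to -0.054, and without pool B Sema4g was at 0 and Sema6b at -0.86. Of 7 co-receptors 2 were higher and 1 lower, and of 38 effectors 2 were higher and 12 lower. Blood endothelial markers were higher for 1 (Podxl) and lower for 3 of 5 measured genes (Flt1, Cd34 and Cxcl12), pan-endothelial markers higher for 3 and lower for 1 of 12, and lymphatic markers lower for 1 of 10. Macrophage markers were higher for 1 and lower for 1 of 4, and Coro1a, Sdc1 and Ccl19 of the haematopoietic, plasma cell and fibroblast lists were lower. Their part in the ratios was not tested.

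Tumour EC and lymph node GFP- cells, the GFP- endothelium of each tissue, shared Robo4, Ephb4, Efna1 and Sema3f and differed in Sema3d, Sema5a, Sema6d and the B-type ephrins. Of 32 measured genes, 4 were higher in tumour EC (background 21.5%) and 12 lower (background 17.7%), and the median log2 ratio was -0.42 against 0.14 for all measured genes. The tissues lie in separate tables, so tissue and sequencing table cannot be told apart. Sema6d was 262.98 against 42.7 CPM, a log2 ratio of 2.60. Unc5a was 152.2-fold higher with GFP- cells set at the floor of 3 reads, which is not a lower bound. Sema4b and Plxnd1 were the others, Plxnd1 at 1.14 and at 0.99 without pool A. Sema3d was 126.1-fold lower in tumour EC, Sema5a had a log2 ratio of -4.81, Plxna4 -3.58, Efnb1 -3.40, Plxnb2 -1.88, Efnb2 -1.31 and Sema3a -1.27. Robo2, Sema3c, Sema3g, Slit3 and Epha1 made up the 12. Without pool B, Efnb2 was at -0.67, Epha1 at -0.052 and Sema3a at 2.38, the opposite sign. Sema3c and Slit3 were too rarely read to be measured without pool B, and Sema3g without pool A or pool C. Robo4, Ephb4, Efna1 and Sema3f had log2 ratios of -0.33, -0.31, 0.62 and 0.58. Of 8 co-receptors 1 was higher (Itgb1) and 5 lower, Nrp1 among them at 249.5 against 619 CPM, and of 40 effectors 8 were higher and 6 lower. Lymphatic markers were lower in tumour EC for 8 of 11 genes, with Prox1 at 0 and 206.01 CPM, and blood endothelial markers were higher for 1 and lower for 4 of 13. Proliferation markers were higher for 4 of 5 genes, with summed levels of 334.01 CPM in tumour EC and 81.6 in GFP- cells, and Ctss, Coro1a and Pf4 of the macrophage, haematopoietic and platelet lists were lower. The part of these in the ratios was not tested.

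**Figure D4:**
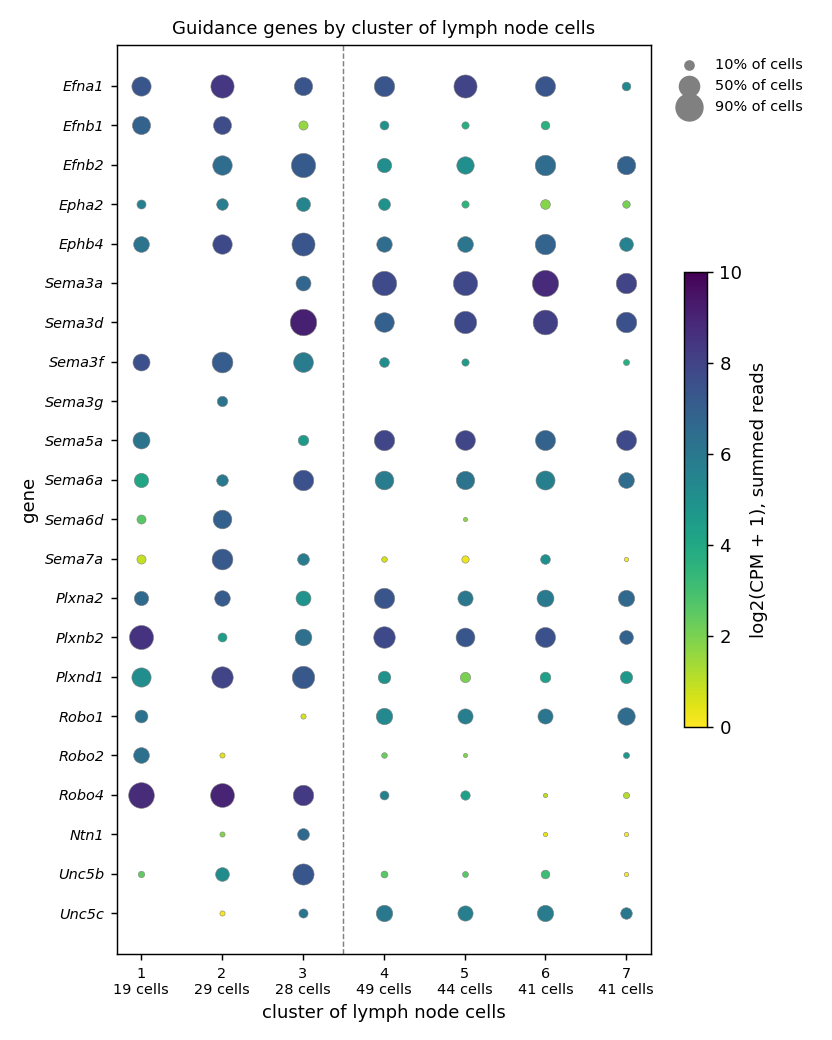
Guidance genes (rows) in 7 clusters of lymph node cells (columns) that were built without these genes and without the marker lists; dot area is the percent of cells with reads and colour log2(CPM + 1) of the summed reads. Clusters 1 to 3, left of the dashed line, hold no GFP+ cell and carry Robo4 and Plxnd1. Clusters 4 to 7 hold all 98 GFP+ cells and carry Sema3a, Sema5a, Robo1 and Unc5c. Cluster 3 also shows Unc5c, from few of its cells.

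Because the lymph node gates mix endothelial types, the lymph node cells were also clustered on genes outside the guidance set and the marker lists, as a description only. Cluster 1 (19 cells, 17 of them GFP-, led by Ccl21a, Chst4 and Fut7) had no name under the marker rule, because Ccl21a is on the lymphatic list. Its markers read in at least 30% of cells were nonetheless 12 pan-endothelial, 10 blood endothelial and 1 lymphatic. Cluster 2 (29 cells, all GFP-, led by Cxcl12, Sox17 and Esm1) was blood endothelial-like. Cluster 3 (28 cells, 21 GFP- and 7 GFPlow, led by Gdf10, Pkhd1l1 and Ackr4) was lymphatic-like. Clusters 4 to 7 held all 98 GFP+, 7 GFP- and 70 GFPlow cells. Clusters 5 and 6 of these were lymphatic-like, each by 8 lymphatic markers, but none of these markers was among their leading genes. Cluster 5 was led by Ulk2, Gm16580 and Nfya and cluster 6 by Wdr89, St6galnac4 and Col4a5. Clusters 4 (led by Dnajb14, Gm10718 and Cd226) and 7 (Gm26377, Gm7206 and Gna13) stayed unnamed, since predicted genes were frequent among their leading genes. What sets clusters 4 to 7 apart was not tested.

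Clusters 1 to 3 held no GFP+ cell, and 2, 0 and 7 GFPlow cells besides GFP- cells. They shared Robo4 and differed in other guidance genes. Cluster 1 held Plxnb2 (373.1 CPM, 73.7% of cells) and Robo4 (436, 84.2%), was the main source of Robo2 (80.8, 31.6%), and had no read of Efnb2, Sema3a, Sema3d or Unc5c. Cluster 2 held Robo4 (510.2 CPM, 72.4%), Plxnd1 (252.5, 58.6%), Ephb4 (48.3% of cells), Efnb1 (209.7), Sema7a (151.9, 55.2%) and Sema6d (125.9, 44.8%), and had no read of Robo1, Sema3a, Sema3d or Sema5a. Cluster 3 held Sema3d (561 CPM, 89.3%), Robo4 (326.9, 53.6%), Sema6a (184.7), Unc5b (159.2, 57.1%), Plxnd1 (154.4, 64.3%), Efnb2 (148.1, 75%) and Ntn1 (96.6, 17.9%). Robo4 was therefore not limited to the blood-like cluster of the GFP- gate.

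Clusters 4 to 7 differed from cluster 3 although 5, 6 and 3 are all lymphatic-like. Robo4 was 49.02, 19.7, 1.03 and 1.23 CPM in clusters 4 to 7, Plxnd1 29.99, 2.99, 19.7 and 24.5, and Unc5b 5.07, 5.01, 7.52 and 0.0472. Sema3a was 212.3, 229.9, 449.6 and 250.1 CPM there, with reads in 75.5%, 75%, 87.8% and 53.7% of cells against 28.6% in cluster 3. Sema5a was 238.1, 237.4, 118.7 and 217.2 CPM there and 23.1 in cluster 3. Unc5c was 69.2 CPM in cluster 3, with reads in 10.7% of its cells, and 51.1 to 62.8 in clusters 4 to 7, with reads in 34.7% of cluster 4. Lymphatic-like GFP- cells, most of them in cluster 3, had almost no Unc5c read (below). The cluster 3 level therefore came almost wholly from the 7 GFPlow cells there. The 24 GFP- cells of the lymphatic-like clusters had Robo4 at 383.8 CPM (13 of 24 cells), Plxnd1 at 157.99, Unc5b at 120.9, Sema3d at 579, Sema3a at 134.1 (5 of 24) and Unc5c at 0.0519 (1 cell). Most of those cells were in cluster 3 and most GFP+ cells in clusters 4 to 7, so gate and cluster overlap almost fully.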

How the data were processed

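Per the labels' protocols, single cells were sorted on a BD FACSAria instrument, amplified by a modified SMART-seq2 with 20 cycles and made into libraries with Nextera XT. The files hold read counts per gene and cell as deposited by the authors, not normalized: whole numbers in 768 columns, all tied to a sample by title (0 columns without one). Per the submitters' processing notes the tools include the aligner STAR (version 2.4.1b), Subread (version 1.4.6-p2) and FastQC (version 0.11.4), with build mm10, and their settings, the annotation and the strand setting are not given in the sources used here. Without a strand setting, overlapping genes cannot be separated: 16 guidance genes share exon bases with another gene, 4 of them over 10% (Efna3, Efna4, Ntn5 and Plxna1).

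From these counts, 92 of 51826 rows in each table that share a symbol were summed, cells were filtered as stated, and reads of a gate were summed and scaled to CPM with Python 3.11.15, numpy 2.4.6, pandas 2.3.3 and scipy 1.17.1. Log ratios use a pseudocount of 1 CPM. Lymph node cells were clustered with scanpy 1.11.5, and figures drawn with matplotlib 3.10.9. No doublet caller was run, since wells were filled by single-cell sorting. The ratio and call steps were tested on simulated data. Gene lists and members were chosen with earlier results of these data known. Genes named with full values reached 20 CPM with reads in 25% of cells in a gate, or belonged to a short list that is always named (Efnb2, Ephb4, Plxnd1, Robo4, Sema3a, Unc5b, Ntn1, Slit2); others are named where apart. The 27 blood wells and 2 wells without a cell entered no comparison. Alternatives were another pseudocount, 2 other filters on low genes, stricter cells, size factors, thinning to 100000 reads, and leaving out each plate or pool. Depth per cell, 58373 to 3.12e+06 reads, limits what can be seen, and a share of 0 allows up to 3 cells of a gate.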

Additional observations from a re-analysis of the deposited data

Results flagged for a closer look

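The ratios of GFP+ to GFP- endothelium for Sema3f, Sema4b and Unc5b had opposite signs in the tumour and in the lymph node. The log2 ratio of Sema3f was 0.5514 in the tumour (CLEC against tumour EC) and -3.68 in the lymph node, that of Sema4b was -1.344 and 3.25, and that of Unc5b was 0.8669 and -3.28. Both CLEC plates lay on 1 side and all 3 lymph node pools on the other, and the difference between tissues was not tested. The CLEC plates also lay apart from each other, and tumour EC came from 1 plate. Sema3f was 154.2 CPM on KM3 and 225.9 on KM4 against 130.2 in tumour EC. Unc5b was 40.4 and 67.6 CPM against 29.4. Genes with a tumour log2 ratio under 0.5 in size were not considered. Only Sema4b was apart in the tumour, at 1.11 CPM on KM3 (6 of 84 cells) and 0.406 on KM4 (2 of 85) against 3.44 in tumour EC (5 of 84). Without plate KM4 it was not apart, since its log2 ratio of -1.07 in summed reads was no longer matched in the mean of the cells. Its call was also lost with a pseudocount of 5 CPM (-0.55). With the filter of 5 CPM and 10% of cells, and after thinning, Sema4b was too low to be measured. The lymph node GFP- pools held 0, 0 and 1 read of it. Sema3a (-1.86 in the tumour and 2.01 in the lymph node) and Sema3g (1.08 and -4.61) were also opposite over whole gates, but not in every pool: pool B stood at -0.02 for Sema3a and at 0 for Sema3g.

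The blood GFP+ wells, which entered no comparison, gave 7 cells that passed the filter. Sema4a was at 334.2 CPM there, with reads in 2 of 7 cells and 99.9% of them in 1 cell. Sema4b was at 12.33 CPM, in 2 of 7 cells, and Unc50 at 42.26 CPM, in 1 of 7. The endothelial receptors Robo4 and Plxnd1 had no read in these cells.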

How the results depend on the processing

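No label names an animal, so nothing here was tested and plate, pool and gate effects rest on counting alone. Under the alternatives, 97 recomputed counts of genes apart stayed within 1.5 times the reported count and 15 did not. The count lower in CLEC than in tumour EC (2) was 1 with a pseudocount of 5 CPM, 0 with a filter of 5 CPM and 10% of cells, 4 with no filter, and 1 to 3 leaving out a plate. GFPlow against GFP-, higher (6), was 3 with the stricter gene filter and 7 to 10 leaving out a pool, where 27.6% (without pool C) and 42.9% (without pool B) of all genes were higher. GFPlow against GFP+ was 3 and 2 instead of 5 for the higher genes with the pseudocount and the stricter gene filter, and for the lower genes (3) it was 8 with no filter, 5 with stricter cells, 5 when thinned, and 6 to 8 leaving out a pool, where 26.9% and 30.8% of all genes were lower. Tumour EC against lymph node GFP-, lower (12), was 7 with the stricter gene filter and 7 to 14 leaving out a pool. The single-gene ratios called apart, each recomputed under several alternatives, gave 999 values. Of these values, 869 kept their call, 120 lost it in the same direction and 10 changed sign. Dropping the gene filter leaves each ratio as it was, so no call could be lost under that alternative. Its values are among the 869 and say nothing on how stable the calls are. Leaving out a pool gave log2 ratios of GFP+ to GFP- from -3.524 to 1.475 for Epha1, -4.888 to 0.02683 for Ntn1 and -1.335 to 0.386 for Plxna4. GFPlow to GFP- ran from -5.84 to 6.661 for Plxna4 and -6.257 to 0.003181 for Unc5b, and Sema3c was 2.154 with stricter cells. GFPlow to GFP+ ran from -3.439 to 3.473 for Sema3f, -0.05445 to 2.849 for Sema7a and -3.441 to 6.017 for Unc5b. Tumour EC to GFP- ran from -2.129 to 2.378 for Sema3a. Causes were not tested, beyond the fewer genes or cells each alternative keeps. No paired analysis was possible because the labels number wells, not animals, and no test was run.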

Other observations

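Other guidance genes were also read together in the same cell. In lymph node GFP+ cells, 28 of 98 held both Sema3a and Unc5c. Unc5 receptors bind netrins, so these 2 genes are not a ligand and its receptor. Unc5c was read in 37.8% of the cells with Sema3a and 16.7% of those without, and in 28.6% and 20% after thinning to 100000 reads. Efna1 and Epha2 were read together in 44 CLEC, with Epha2 in 32.1% of the cells with Efna1 and 34.4% of those without. The netrin-G genes, lipid-anchored relatives of the netrins outside the set, gave no read for Ntng1 in any gate, and Ntng2 was at 22.5, 33.6 and 42.2 CPM in lymph node GFP+, GFP- and GFPlow cells and 1.80 in CLEC.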
